A study of Mus musculus with 12 samples.

Results

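Read levels of 10 genes that write, erase or hold histone H3K27 methylation and DNA methylation were followed in mouse bone marrow-derived dendritic cells (BMDC) stimulated with lipopolysaccharide (LPS) with and without the NF-κB inhibitor JSH-23. The genes were Kdm6a, Kdm6b, Ezh1, Ezh2, Eed, Suz12, Tet2, Tet3, Dnmt1 and Dnmt3a. They were chosen by symbol from the 55335 genes listed, and each matched 1 gene identifier in GENCODE. All 10 of them passed the filter on low counts that left 14357 genes for testing. The data were 12 bulk RNA-seq libraries in 4 groups of 3, named WT, WTL, WT + JSH23 and WTL + JSH23. WTL cells had received LPS, a component of the Gram-negative cell wall, at 100 ng/ml for 3 h. The JSH-23 groups had received JSH-23, a small molecule that keeps the NF-κB subunit RelA out of the nucleus, at 100 µM for 3 h beforehand. All 4 groups were C57BL/6 cells carrying the ubiquitously driven Rosa26-CreER transgene with intact Ctcf alleles, grown for 6 days in GM-CSF with the medium changed every 2 days. Per the study's methods the donors were 8- to 12-week-old male and female mice and the cells were enriched for CD11c. The sources used here do not settle whether cultures without JSH-23 were given its solvent, or whether 4-hydroxytamoxifen was added to these cultures.

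Polycomb repressive complex 2 (PRC2) places methyl groups on lysine K27 of histone H3 through its catalytic subunit, EZH2 or EZH1, which works only when bound to EED and SUZ12. The demethylases KDM6A and KDM6B remove this repressive mark, and KDM6B is known as an enzyme induced in myeloid cells by inflammatory signals. On DNA, DNMT1 copies cytosine methylation at replication, DNMT3A places it anew, and TET2 and TET3 oxidise methylcytosine as a step towards its removal. In dendritic cells and macrophages, TET2 is known to bear on the resolution of inflammatory gene expression.

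The libraries held between 24664724 and 34837847 expected counts. Per the study's methods, RNA sequencing had 3 biological replicates for each condition. The labels do not say whether these were separate mice or separate cultures, so p-values measure the spread between these libraries. Levels are given as TMM-scaled CPM, the count as a share of the library, which compares libraries, or as TPM, the share of transcripts, which is per transcript length and compares genes. The choice of scaling moved the LPS comparisons as a whole. Scaled by library totals alone, the median gene fell by 0.38 on the log2 scale with LPS without JSH-23, against a fall by 0.047 with TMM. Of all genes called there, 19.7% were higher with totals alone, 39.1% with upper quartile scaling and 47.2% with TMM. With JSH-23 present the same shares were 20.9%, 37.7% and 50.3%. For JSH-23 under LPS they were 70.9% with totals alone and 50.3% with TMM, and for the difference of the LPS effects 79.3% and 53.1%. Tests on TPM, which is a share of the library too, gave 19.7%, 24.9%, 68.3% and 79.5% for these comparisons in the same order, and DESeq2 gave 41.0% for the last. Log2 fold changes below are therefore relative to the typical gene, and it is said where a member's direction flips. Taken relative to the median of all genes, the LPS response without JSH-23 of each of the 10 genes had the same sign under all 6 scalings and tools.

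Markers of the labelled cell type were present in every library. All 6 of a list of LPS response genes, Il6 and Tnf among them, rose with LPS both without and with JSH-23 (median log2 4.89 and 4.40). JSH-23 under LPS lowered 5 of these 6 and raised 1 (median -0.61). The difference of the LPS effects was lower for 4 and higher for 1 (median -1.08). The 8 dendritic cell markers, Itgax and Cd74 among them, summed to between 12186 and 15969 CPM. Xist was below 0.88 CPM and 4 Y-linked genes summed to between 193 and 244 CPM in each library, so the X-linked Kdm6a was compared between libraries of the same XY pattern. Summed lymphocyte markers lay between 0.25 and 1.20 CPM, with Ms4a1, Nkg7 and Ncr1 at or near 0. Summed neutrophil markers were highest in WTL, at 61.9 to 62.9 CPM against 41.5 to 49.2 in the other groups. Of their 6 tested genes, 4 rose with LPS alone, or 1 with library totals alone and 1 in the tests on TPM. All 6 fell with JSH-23 under LPS, or 3 with library totals alone. Summed mast cell and basophil markers lay between 6.68 and 8.87 CPM without JSH-23 and between 4.39 and 6.01 CPM with it. Of the 8 dendritic cell markers, 6 rose and 1 fell with LPS alone, but 2 rose and 5 fell with library totals alone. JSH-23 under LPS lowered 6 and raised 1 of them, or 3 and 2 with library totals alone. Summed macrophage markers moved with both treatments, from 2567 to 2735 CPM in WT, 2050 to 2168 in WTL, 1881 to 1913 in WT + JSH23 and 1650 to 1665 in WTL + JSH23. Of these 8 markers, 7 fell with JSH-23 in unstimulated cells and 6 fell under LPS. The part of these cell types in the changes below was not tested, and in bulk RNA fewer cells of a type cannot be told apart from less RNA per cell.

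The question of the LPS comparisons was which genes respond to stimulation, and that of the JSH-23 comparisons was which of them change with this inhibitor. Whether a change with JSH-23 came through NF-κB or through another effect of the compound was not tested. With LPS alone, 4 of the 10 genes were higher (Kdm6a, Kdm6b, Suz12, Tet2), 5 were lower (Ezh1, Ezh2, Tet3, Dnmt1, Dnmt3a) and Eed did not pass an adjusted p of 0.05. Among all genes tested, 31.0% were higher and 34.7% lower. More than 2-fold changes were seen for 2 members, Kdm6b and Dnmt1, against 16.4% of all genes. Which members passed that line depended on the scaling, since Kdm6b was at 0.97 with library totals alone and 0.93 on log2(TPM + 1), and Dnmt3a at -1.32 with totals, -1.08 with upper quartile scaling and -1.03 on log2(TPM + 1). With LPS in the presence of JSH-23, 5 were higher (Kdm6a, Kdm6b, Suz12, Tet2, Tet3) and 2 lower (Dnmt1, Dnmt3a), against 27.4% and 27.1% of all genes, and the same count of 2 exceeded 2-fold, against 10.3%. These splits belong to TMM. With library totals alone, 2 members were higher and 7 lower with LPS without JSH-23, and 1 was higher and 4 lower with it. Of the 14357 genes tested, 2106 were higher and 8601 lower without JSH-23 by that scaling, and 2011 and 7601 with it. On log2(TPM + 1) the members higher and lower were 1 and 5 without JSH-23, and 1 and 3 with it. All genes gave 1911 and 7802, and 1977 and 5947. Upper quartile scaling gave 3 and 5, and 3 and 2, beside 3749 and 5832, and 3085 and 5090, of all genes. JSH-23 under LPS raised 4 (Kdm6b, Ezh1, Tet3, Dnmt1) and lowered 4 (Kdm6a, Eed, Tet2, Dnmt3a), against 24.5% and 24.2%, none more than 2-fold, against 7.00%. That split was 5 higher and 2 lower with library totals alone, and on log2(TPM + 1) 4 and 1. For all genes these were 5460 and 2241, and 4242 and 1967. JSH-23 without LPS raised 3 (Kdm6b, Ezh1, Dnmt1) and lowered 5 (Kdm6a, Eed, Tet2, Tet3, Dnmt3a), against 18.8% and 22.1%, again none more than 2-fold, against 5.37%. On log2(TPM + 1), 2 members were higher and 3 lower, beside 2078 and 2463 of all genes. The median absolute log2 fold change of the members with LPS alone was 0.29, below the 0.39 of all genes. For JSH-23 without LPS it was 0.26, above the 0.20 of all genes. The 4 comparisons share libraries, so their values are given side by side and were not correlated.

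**Figure D1:**
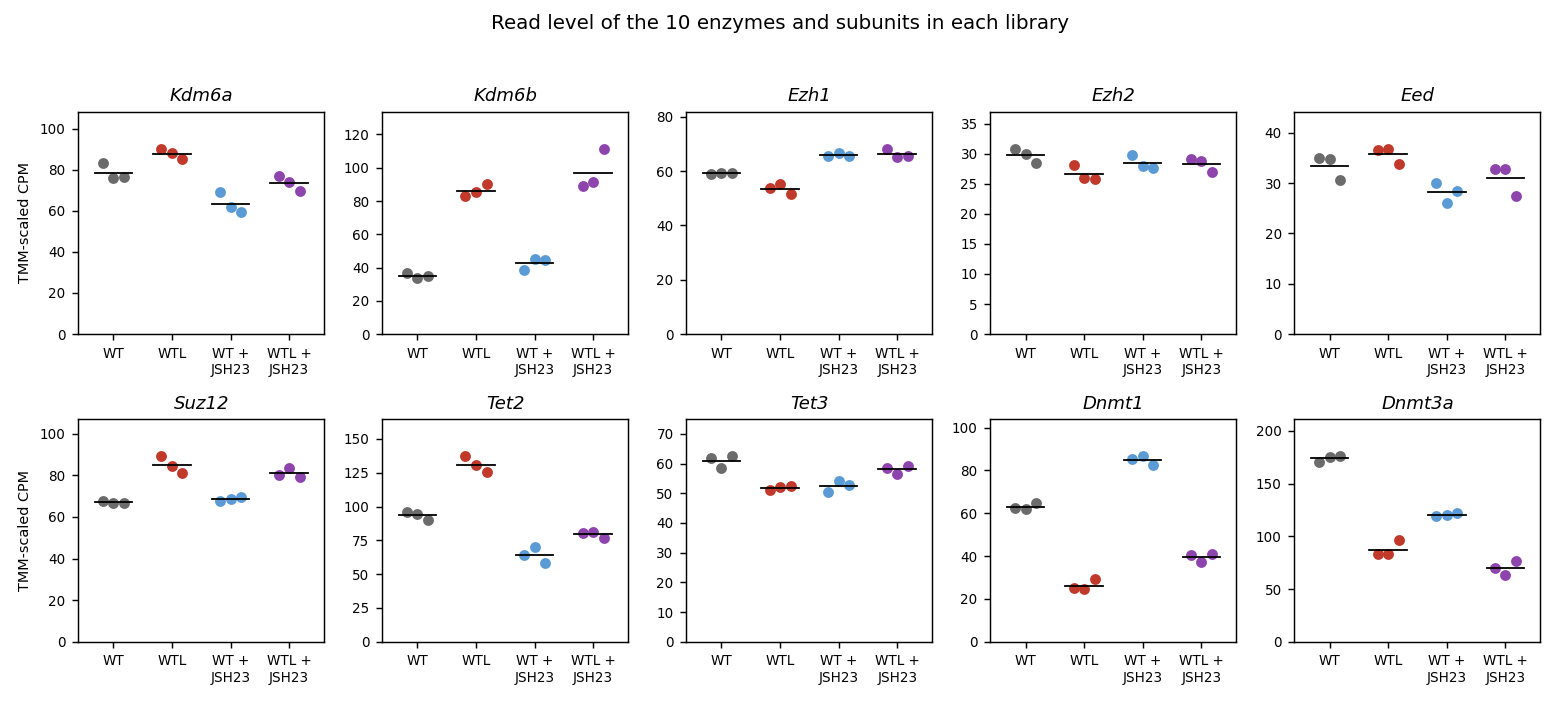
TMM-scaled CPM (y axis, starting at 0) of each of the 10 genes in the 3 libraries of the 4 groups (points), with the group mean as a line. Kdm6b stands at 82.8 to 90.0 CPM in WTL against 33.5 to 36.8 in WT, Dnmt1 at 24.5 to 29.2 against 61.8 to 64.9, and Tet2 falls to 58.6 to 70.4 in WT + JSH23.

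Levels between genes were compared per length. In WT, Eed had the highest mean TPM of the 10 (49.9 ± 4.4, SD, n = 3), followed by Dnmt3a (42.7 ± 0.77) and Kdm6a (36.6 ± 1.6). Ezh2 (29.0 ± 3.4) and Ezh1 (28.1 ± 1.5) overlapped between libraries, and Suz12 (27.0), Tet2 (25.3) and Dnmt1 (21.8) followed. Tet3 (9.99 ± 0.42) and Kdm6b (9.56 ± 0.81) were lowest and overlapped each other. Their levels were higher than those of 48.6% and 47.7% of the genes tested in WT, and that of Eed than 81.3%. LPS rearranged this order. In WTL, Kdm6b had reached a mean of 19.1 TPM and overlapped Ezh1 (19.98), which overlapped Dnmt3a (20.5), which had been the second of the order, and Dnmt3a overlapped Ezh2 (20.5). Dnmt1 (7.13) overlapped Tet3 (6.64) at the bottom. In WT + JSH23, Dnmt1 was at 29.3 TPM, overlapping Ezh1 above it and Ezh2 below it, and Tet3 was lowest at 8.47. In WTL + JSH23, Kdm6b was at 24.3 TPM and overlapped Ezh2 (24.1), while Tet3 was again lowest at 8.17.

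Of the H3K27 demethylases, Kdm6b (ENSMUSG00000018476.7, chr11:69398508-69413675, minus strand, mm10) responded to LPS most strongly of the genes that rose. It was at 36.8, 33.5 and 34.7 CPM in the WT libraries and at 82.8, 85.7 and 90.0 CPM in WTL. With JSH-23 it was at 38.5, 44.9 and 44.3 CPM without LPS and at 88.7, 91.2 and 111.4 CPM with LPS. Every LPS library lay above every library without LPS, and the LPS rise was 2.46-fold without JSH-23 (log2 1.30 ± 0.074, SE, edgeR adjusted p = 1.4e-12) and 2.28-fold with it (1.19 ± 0.073, adjusted p = 8.2e-12). The difference of these LPS effects was -0.11 ± 0.10 (adjusted p = 0.52), with a 95% interval from -0.35 to 0.13. Kdm6b was higher with JSH-23 in unstimulated cells (log2 0.28 ± 0.077, adjusted p = 0.0052) and, at the edge of the threshold, under LPS (0.17 ± 0.070, adjusted p = 0.047). WTL and WTL + JSH23 overlapped in Kdm6b, and that call rested on the 111.4 CPM of WTL + JSH23 replicate 3. Without that library the change was 0.064 (adjusted p = 0.37), and without WTL replicate 4 or 5 the adjusted p was 0.16 or 0.11. Without WT replicate 4, 5 or 6 or WT + JSH23 replicate 2 it lay between 0.050 and 0.056, and with DESeq2 it was 0.087. A fraction of the reads in Kdm6b was shared with other genes in 8 libraries, and the antisense gene Kdm6bos that overlaps it held at most 14.1 counts.

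Kdm6a (ENSMUSG00000037369.17, chrX:18162575-18279936, plus strand), the X-linked counterpart that is also a subunit of the KMT2C and KMT2D complexes, moved little with LPS and fell with JSH-23. Its level was 83.4, 76.0 and 76.3 CPM in WT, 90.2, 88.2 and 85.1 in WTL, 69.0, 61.9 and 59.3 in WT + JSH23 and 77.2, 73.8 and 69.7 in WTL + JSH23. The groups without JSH-23 did not overlap the matching groups with it. JSH-23 lowered Kdm6a by 1.24-fold in unstimulated cells (log2 -0.31 ± 0.055, adjusted p = 9.2e-05) and by 1.19-fold under LPS (-0.25 ± 0.055, adjusted p = 0.00060). The fall under LPS did not pass with library totals alone (-0.13, adjusted p = 0.068) or on log2(TPM + 1) (-0.14, adjusted p = 0.20). The LPS rise was 1.12-fold (0.16 ± 0.054, adjusted p = 0.013) without JSH-23 and 1.16-fold (0.21 ± 0.056, adjusted p = 0.0026) with it, and both changed sign with library totals alone (-0.17 and -0.024). Neither rise passed with upper quartile scaling (adjusted p = 0.21 and 0.057). The first of these rises did not pass without WT replicate 5, WT replicate 6 or WTL replicate 4, with adjusted p = 0.059, 0.055 and 0.055. In TPM, Kdm6a was lower in WTL (32.1 ± 1.5) than in WT (36.6 ± 1.6).

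**Figure D2:**
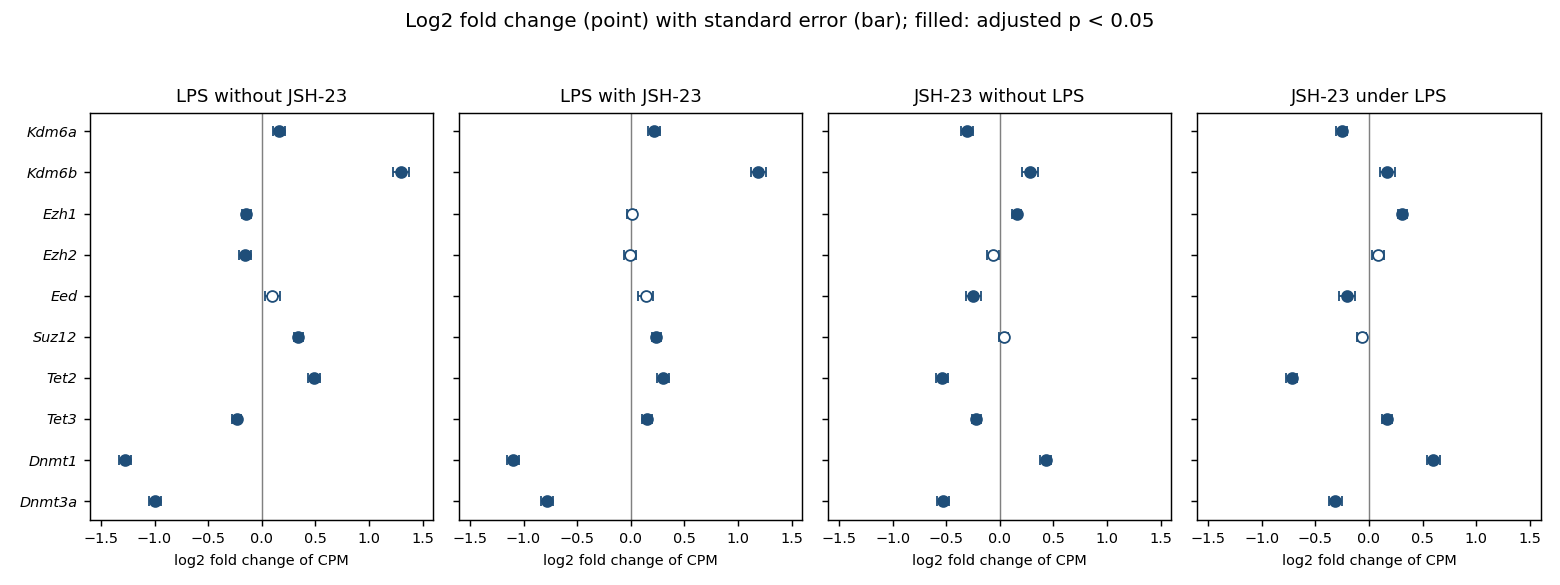
Log2 fold change of CPM (x axis) with its standard error for the 10 genes in each of the 4 comparisons, filled where the adjusted p is below 0.05. With LPS, Kdm6b lies near 1.30 and 1.19 and Dnmt1 near -1.27 and -1.10. With JSH-23, Tet2 and Dnmt3a lie below 0 and Dnmt1 and Ezh1 above 0, with and without LPS.

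The catalytic PRC2 subunits changed by small amounts. Ezh2 (ENSMUSG00000029687.16, chr6:47530139-47595341, minus strand), the form tied to proliferating cells, was at 30.8, 29.9 and 28.5 CPM in WT and at 28.0, 26.0 and 25.8 CPM in WTL. In the JSH-23 groups it lay between 27.0 and 29.7 CPM. The LPS fall without JSH-23 was 1.12-fold (log2 -0.16 ± 0.055, adjusted p = 0.014) and did not pass with DESeq2 (adjusted p = 0.099) or without WT replicate 4, WTL replicate 5 or WTL replicate 6 (adjusted p = 0.067, 0.061 and 0.052). Ezh2 did not pass in the other 3 comparisons with TMM, where its log2 fold changes lay between -0.065 and 0.089. It passed with library totals alone in both comparisons that involve WTL + JSH23, at -0.24 for LPS and 0.22 for JSH-23. Ezh1 (ENSMUSG00000006920.14, chr11:101191115-101226463, minus strand), the form of resting cells, was tighter between replicates, at 58.9, 59.2 and 59.3 CPM in WT. It was at 53.9, 55.1 and 51.6 CPM in WTL, and between 65.3 and 68.2 CPM in the 6 libraries with JSH-23. Every JSH-23 library thus lay above every library without it. JSH-23 raised Ezh1 by 1.11-fold in unstimulated cells (0.16 ± 0.040, adjusted p = 0.0033) and by 1.24-fold under LPS (0.31 ± 0.042, adjusted p = 2.4e-06). The LPS fall of Ezh1 was 1.10-fold without JSH-23 (-0.14 ± 0.041, adjusted p = 0.0044). With JSH-23 its change was 0.0089 ± 0.041 (adjusted p = 0.87, 95% interval from -0.085 to 0.10), and the difference of the LPS effects, 0.15 ± 0.058, did not pass (adjusted p = 0.074). It passed with a minimum mean of 1 CPM (0.16, adjusted p = 0.049), with library totals alone (0.24, adjusted p = 0.0049) and on log2(TPM + 1) (0.34, adjusted p = 0.011), where the rise with JSH-23 in unstimulated cells did not (0.13, adjusted p = 0.082).

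Of the core subunits, Suz12 passed in both LPS comparisons and Eed in both JSH-23 comparisons. Suz12 (ENSMUSG00000017548.15, chr11:79993106-80034123, plus strand), which the complex needs for assembly, was at 67.7, 66.5 and 66.9 CPM in WT and at 89.0, 84.4 and 81.1 CPM in WTL. It was at 67.8, 68.8 and 69.4 CPM in WT + JSH23 and at 80.4, 83.3 and 79.4 CPM in WTL + JSH23. The LPS libraries lay above the others throughout, by 1.27-fold without JSH-23 (log2 0.34 ± 0.042, adjusted p = 3.1e-07) and 1.18-fold with it (0.24 ± 0.042, adjusted p = 5.5e-05). With library totals alone these changes were 0.011 and -5.8e-05 and did not pass, so the rise of Suz12 is one relative to other genes. Relative to the median of all genes it lay between 0.27 and 0.39 without JSH-23 under every scaling. JSH-23 changed Suz12 by 0.035 ± 0.042 without LPS (adjusted p = 0.55) and by -0.068 ± 0.042 under LPS (adjusted p = 0.19).

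Eed (ENSMUSG00000030619.10, chr7:89954654-89980983, minus strand), the subunit that reads the finished mark, was at 35.02, 34.8 and 30.5 CPM in WT and at 36.6, 36.8 and 33.9 CPM in WTL. It was at 30.0, 26.1 and 28.5 CPM in WT + JSH23 and at 32.8, 32.9 and 27.4 CPM in WTL + JSH23. The LPS groups overlapped their controls, and the LPS changes were 0.097 ± 0.069 (adjusted p = 0.23) and 0.14 ± 0.072 (adjusted p = 0.11). The second of these passed without WTL + JSH23 replicate 3 (0.22, adjusted p = 0.0092). JSH-23 lowered Eed by 1.19-fold in unstimulated cells (-0.25 ± 0.070, adjusted p = 0.0070) and by 1.15-fold under LPS (-0.20 ± 0.072, adjusted p = 0.022). The fall under LPS did not pass without WTL replicate 4, WTL replicate 5 or WTL + JSH23 replicate 3, with adjusted p = 0.069, 0.084 and 0.13. It was -0.075 with library totals alone (adjusted p = 0.40) and 0.019 on log2(TPM + 1), and the fall in unstimulated cells did not pass on log2(TPM + 1) either (-0.19, adjusted p = 0.17). The overlapping gene E230029C05Rik held at most 99.6 counts, where Eed held between 634 and 1223.

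Tet2 (ENSMUSG00000040943.12, chr3:133463679-133545139, minus strand) was the member with the largest fall with JSH-23 in both comparisons, with Dnmt3a close to it in unstimulated cells. Its level was 96.1, 94.4 and 89.7 CPM in WT and 137.0, 130.4 and 125.3 CPM in WTL. With JSH-23 it was 64.3, 70.4 and 58.6 CPM without LPS and 80.1, 81.3 and 77.0 CPM with LPS. No JSH-23 library reached the lowest library without it, even though LPS had been added to 3 of them. The fall was 1.45-fold in unstimulated cells (log2 -0.54 ± 0.054, adjusted p = 4.4e-08) and 1.65-fold under LPS (-0.72 ± 0.054, adjusted p = 3.2e-10). LPS raised Tet2 by 1.40-fold without JSH-23 (0.49 ± 0.052, adjusted p = 4.8e-08) and by 1.23-fold with it (0.30 ± 0.055, adjusted p = 8.1e-05). The rise with JSH-23 did not pass with library totals alone (0.065, adjusted p = 0.31) or on log2(TPM + 1) (0.086, adjusted p = 0.37). The difference of the LPS effects, -0.18 ± 0.076, had an adjusted p of 0.10, which was 0.023 without WT + JSH23 replicate 3 and 0.048 with DESeq2. In TPM the LPS rise of Tet2 was smaller (25.3 ± 1.5 in WT and 27.2 ± 1.4 in WTL) and did not pass in the test on log2(TPM + 1) (adjusted p = 0.26).

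Tet3 (ENSMUSG00000034832.15, chr6:83362373-83459084, minus strand), its paralog, was the member whose response to LPS differed with JSH-23 beyond the threshold in every fit. It was at 62.0, 58.5 and 62.4 CPM in WT and at 50.9, 52.0 and 52.5 CPM in WTL, so that every stimulated library lay lower. With JSH-23 the order was turned, at 50.3, 54.2 and 52.6 CPM without LPS and 58.6, 56.6 and 59.2 CPM with LPS. LPS lowered Tet3 by 1.18-fold without JSH-23 (log2 -0.23 ± 0.044, adjusted p = 9.1e-05) and raised it by 1.11-fold with it (0.15 ± 0.045, adjusted p = 0.0067). The rise was -0.087 with library totals alone and -0.047 on log2(TPM + 1), and neither passed, nor did the 0.067 of upper quartile scaling (adjusted p = 0.21). The difference of the LPS effects was 0.39 ± 0.063 (adjusted p = 0.00019), and it passed in all 12 fits that left out 1 library and in all other fits, between 0.36 and 0.48. Among all genes tested, 9.54% had a higher and 8.44% a lower LPS response with JSH-23 by the same rule. In the main fit, with TMM, all 12 libraries and no replicate block, the other 9 members did not pass, and their differences lay between -0.18 and 0.22. Ezh1, Ezh2, Tet2, Dnmt1 and Dnmt3a each passed in some other fit, such as Dnmt3a with no filter on low counts (0.22, edgeR adjusted p = 0.016).

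Dnmt1 and Dnmt3a fell most with LPS and answered JSH-23 in opposite directions. Dnmt1 (ENSMUSG00000004099.16, chr9:20907209-20959888, minus strand), the maintenance methyltransferase, was at 62.5, 61.8 and 64.9 CPM in WT and at 24.9, 24.5 and 29.2 CPM in WTL. With JSH-23 it was at 85.2, 86.5 and 82.7 CPM without LPS and at 40.5, 37.3 and 40.8 CPM with LPS. The 4 groups did not overlap at all. The LPS fall was 2.42-fold without JSH-23 (log2 -1.27 ± 0.057, adjusted p = 2.8e-14) and 2.14-fold with it (-1.10 ± 0.054, adjusted p = 2.2e-13). JSH-23 raised Dnmt1 by 1.34-fold in unstimulated cells (0.43 ± 0.051, adjusted p = 5.8e-07) and by 1.52-fold under LPS (0.60 ± 0.061, adjusted p = 3.7e-08). All 4 calls held under every scaling, tool and omission of a library. The difference of the LPS effects was 0.17 ± 0.079 (adjusted p = 0.14), and 0.25 (adjusted p = 0.019) without WTL replicate 6, the WTL library with the highest Dnmt1.

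Dnmt3a (ENSMUSG00000020661.15, chr12:3806007-3914443, plus strand), which methylates DNA anew, was at 170.7, 175.6 and 175.7 CPM in WT and at 83.3, 82.9 and 96.2 CPM in WTL. It was at 119.5, 120.2 and 121.8 CPM in WT + JSH23 and at 70.0, 63.8 and 77.0 CPM in WTL + JSH23, so these groups did not overlap either. LPS lowered it by 1.99-fold without JSH-23 (log2 -0.995 ± 0.056, adjusted p = 1.4e-12), just inside the 2-fold line, and by 1.72-fold with it (-0.78 ± 0.058, adjusted p = 2.3e-10). JSH-23 lowered it by 1.44-fold in unstimulated cells (-0.53 ± 0.055, adjusted p = 7.0e-08) and by 1.24-fold under LPS (-0.31 ± 0.059, adjusted p = 0.00014). On log2(TPM + 1) both JSH-23 changes kept their sign and did not pass (adjusted p = 0.057 and 0.19). The difference of the LPS effects, 0.22 ± 0.081, had an adjusted p of 0.070, which was 0.011 without WTL replicate 6 and 0.014 without WTL + JSH23 replicate 2. Dnmt3aos, on the opposite strand within the gene, fell with it, from 3.66 to 4.01 CPM in WT to 0.54 to 0.83 CPM in WTL. It held at most 141 counts where Dnmt3a held between 1603 and 6172. If the counts did not use strand, reads of the 2 genes cannot be told apart.

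The sequences before the transcription starts of these DNA methyltransferases and of Ezh2 are shown because Dnmt1 and Ezh2 were the members with E2F letters there, and because Dnmt3a has a distal and an internal start. RefSeq promoter windows of 300 bases on GRCm38.p6, from 250 before to 50 after a start, were found for 9 of the 10 members in 13 windows, with none for Kdm6b. Each is written 5′ to 3′ on the gene's strand. Capitals mark the letters TTTNGCGC (E2F) and GGGCGG (GC box), on either strand. The Dnmt1 window is chr9:20952574-20952873 on the minus strand, the Ezh2 window chr6:47594981-47595280 on the minus strand, and the Dnmt3a windows are chr12:3806730-3807029 (distal) and chr12:3891494-3891793 (internal) on the plus strand. Dnmt1 has further windows upstream that are not shown, chr9:20959839-20960138 and chr9:20952930-20953229. They hold no match to either set of letters, and 2 and 12 CpG. A further Dnmt3a window, chr12:3806910-3807209, overlaps the distal one and holds 7 GC boxes.
Dnmt1: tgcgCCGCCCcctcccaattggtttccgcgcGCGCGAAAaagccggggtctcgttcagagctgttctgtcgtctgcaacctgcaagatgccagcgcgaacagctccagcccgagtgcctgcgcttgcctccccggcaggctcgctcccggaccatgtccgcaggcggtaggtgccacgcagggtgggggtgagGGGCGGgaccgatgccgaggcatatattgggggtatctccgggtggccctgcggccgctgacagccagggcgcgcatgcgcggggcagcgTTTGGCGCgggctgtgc
Ezh2: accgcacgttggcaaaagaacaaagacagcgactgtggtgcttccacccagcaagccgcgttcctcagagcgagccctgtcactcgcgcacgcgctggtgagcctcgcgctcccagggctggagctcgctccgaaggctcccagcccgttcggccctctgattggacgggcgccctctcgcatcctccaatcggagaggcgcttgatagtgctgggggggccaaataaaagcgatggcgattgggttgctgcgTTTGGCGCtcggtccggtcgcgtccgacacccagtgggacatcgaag
Dnmt3a distal: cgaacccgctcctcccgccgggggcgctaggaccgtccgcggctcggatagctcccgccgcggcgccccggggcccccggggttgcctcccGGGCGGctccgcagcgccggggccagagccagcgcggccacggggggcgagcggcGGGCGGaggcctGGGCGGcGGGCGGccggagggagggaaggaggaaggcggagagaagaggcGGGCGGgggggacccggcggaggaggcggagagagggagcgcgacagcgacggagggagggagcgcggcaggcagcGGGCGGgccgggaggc
Dnmt3a internal: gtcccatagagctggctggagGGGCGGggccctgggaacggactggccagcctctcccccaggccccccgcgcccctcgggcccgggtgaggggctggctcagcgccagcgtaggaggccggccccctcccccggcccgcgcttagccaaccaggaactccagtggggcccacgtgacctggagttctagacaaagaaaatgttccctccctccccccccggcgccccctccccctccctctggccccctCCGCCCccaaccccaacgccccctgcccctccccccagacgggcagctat

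E2F letters were in 1.38% of the 32851 RefSeq promoter windows and in 2 of the 13 windows of the members. They lay 219 bases before and 33 bases after the Dnmt1 start shown and 3 bases after the Ezh2 start. GC boxes were in 35.7% of all windows and in 8 of the 13, from 6 members, with 6 matches in the distal and 2 in the internal Dnmt3a window. The κB letters GGGANNNNCC, also searched on both strands, were in 20.7% of all windows and in 3 of the 13, those of Kdm6a, Eed and Tet3. In Tet3 the κB match shares 2 bases with a GC box. The letters TGACGTCA (CRE) were in 1.79% of all windows and in none of the 13. The windows of Tet2, with 57 CpG, and of Dnmt3a at the distal start, with 46, held more CpG than 99.8% and 98.4% of all windows, where the median was 7. The Dnmt1 window shown held 33 and the internal Dnmt3a window 18. These are descriptions of the windows, and a match does not show binding.

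The deposited gene tables also give each gene's transcript length weighted by abundance, which reads isoform use. Two-sided exact permutation tests over the 12 libraries, shuffled within the other treatment (400 arrangements, smallest possible p = 0.005), were run for LPS and JSH-23 on the 10 genes. None of these 20 tests passed after adjustment, and 1 had an unadjusted p below 0.05. Eed had the lowest p, with transcripts 61.9 bases shorter with JSH-23 (exact permutation p = 0.005, adjusted p = 0.10). For Dnmt3a, whose annotated transcripts from the distal start run to 9685 bases and from the internal start to 5424 bases, the weighted length was 6786, 6716 and 7020 bases in WT and 6031, 5127 and 6104 bases in WTL. These groups did not overlap, but the JSH-23 groups did, at 5595 to 6357 bases without LPS and 5128 to 6212 bases with it, and the LPS effect over both strata was -598 bases (permutation p = 0.07, adjusted p = 0.50).

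Ratios of the paired enzymes within a library do not depend on the scaling between libraries. Their LPS and JSH-23 effects were tested by the same exact permutation, with adjustment over 8 tests, in which 0.008 was the lowest adjusted p reached. The TPM ratio of Kdm6b to Kdm6a was 0.26 ± 0.019 in WT, 0.60 ± 0.069 in WTL, 0.41 ± 0.058 in WT + JSH23 and 0.85 ± 0.19 in WTL + JSH23 (SD, n = 3). It rose with LPS (log2 1.12, permutation adjusted p = 0.008) and with JSH-23 (0.56, permutation adjusted p = 0.008), so that only in WTL + JSH23 replicate 3 did Kdm6b exceed Kdm6a, at a ratio of 1.07. The ratio of Dnmt3a to Dnmt1 was 1.96 ± 0.14, 2.91 ± 0.43, 1.18 ± 0.11 and 1.55 ± 0.25 in the same order of groups. LPS raised it (0.47, permutation adjusted p = 0.008), since Dnmt1 fell more, and JSH-23 lowered it (-0.82, permutation adjusted p = 0.008). The ratio of Tet3 to Tet2 was 0.40 ± 0.034, 0.24 ± 0.021, 0.48 ± 0.049 and 0.43 ± 0.027. LPS lowered it (-0.42, permutation adjusted p = 0.02) and JSH-23 raised it (0.55, permutation adjusted p = 0.008), and the LPS effect was -0.70 without and -0.14 with JSH-23. The ratio of Ezh2 to Ezh1 stayed close to 1, at 1.04 ± 0.17, 1.03 ± 0.073, 0.94 ± 0.058 and 0.86 ± 0.063. Neither its LPS effect (-0.071, permutation adjusted p = 0.43) nor its JSH-23 effect (-0.19, permutation adjusted p = 0.057) passed. Both passed without WT replicate 6 (-0.14, permutation adjusted p = 0.03, and -0.27, permutation adjusted p = 0.0067).

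**Figure D3:**
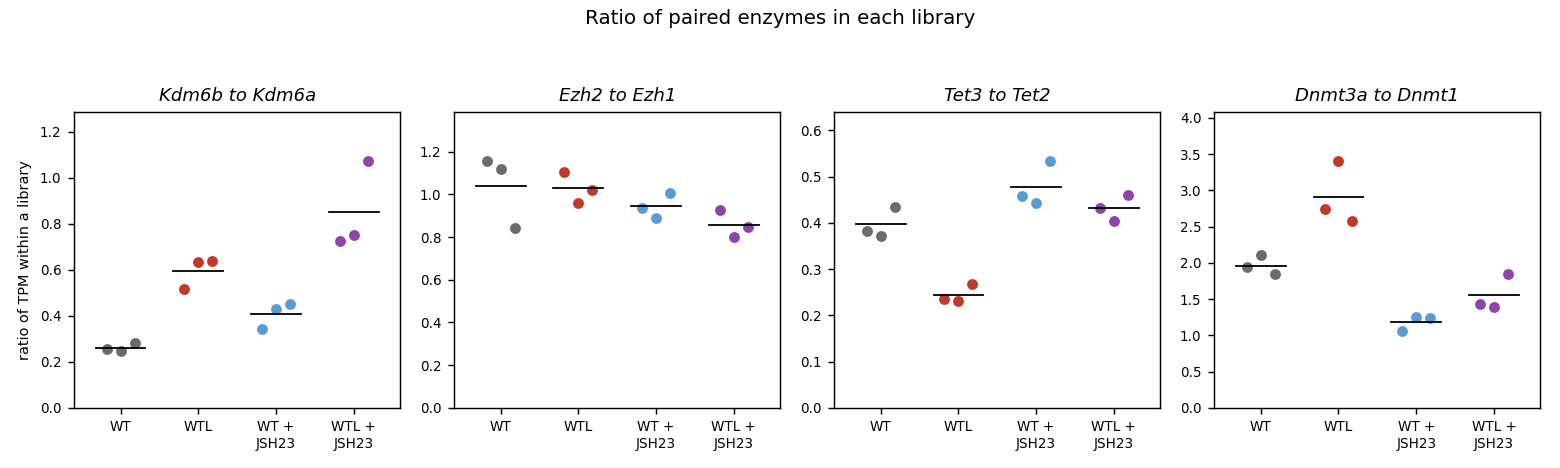
Ratio of TPM (y axis, starting at 0) of 4 pairs of related enzymes in each of the 12 libraries (points), with the group mean as a line. The Dnmt3a to Dnmt1 ratio is at 2.58 to 3.40 in WTL and at 1.06 to 1.25 in WT + JSH23, and the Ezh2 to Ezh1 ratio lies between 0.80 and 1.16 in all groups.

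Genes of the complexes around these enzymes were counted from lists, beside the background shares given above. Of 8 accessory and histone-binding PRC2 subunits, 5 were higher and 2 lower with LPS alone (median log2 0.52, against -0.047 for all genes). These were 4 and 4 with library totals alone (median 0.19), and the median was 0.25 on log2(TPM + 1). Jarid2, which helps to bring PRC2 to its targets, rose by 1.10 ± 0.044 (SE), and Epop, found with PRC2 in another subcomplex, by 1.96 ± 0.076. Phf19, which binds methylated H3K36, was low, at a mean of 2.60 CPM in WT and 1.11 CPM in WTL, and fell by 1.24 ± 0.23 on the log2 scale. JSH-23 under LPS lowered 4 and raised 2 of the 8 (median -0.098, and 0.031 with library totals alone), with Jarid2 at -0.41 and Epop at -0.46. Of 21 subunits of PRC1, the complex that ubiquitinates histone H2A, 6 were higher and 9 lower with LPS alone (median -0.17), against 5 and 15 with library totals alone (-0.50) and 5 and 13 on log2(TPM + 1) (-0.44). The corepressor Bcor rose by 1.16 ± 0.056, while Cbx6, at 1.28 CPM in WT, fell by 2.43 ± 0.40 on the log2 scale. Of 3 tested subunits of the opposing H2A deubiquitinase, Bap1 (0.17, and -0.16 with library totals alone) and Asxl1 (0.68) rose. Asxl3 had no counts.

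In the KMT2C and KMT2D complex, in which Kdm6a sits, 1 of 9 genes was higher and 3 lower with LPS alone (median -0.10). None was higher and 7 were lower with library totals alone (-0.43), and with upper quartile scaling 1 was higher and 6 lower. Kmt2c fell by 0.60 ± 0.057 on the log2 scale with LPS and Wdr5 rose by 0.32 ± 0.066. Of 13 tested genes among other writers, erasers and readers of DNA methylation, 3 were higher and 8 lower with LPS alone (median -0.21), against 1 and 9 with library totals alone (-0.54). Tdg, the glycosylase that removes the oxidised bases made by TET enzymes, rose by 0.60 ± 0.043 with LPS and was lower by -0.46 ± 0.044 with JSH-23 under LPS, the same directions as Tet2. Mbd4 fell by 0.79 ± 0.087 on the log2 scale with LPS. Among 16 cell cycle and replication genes, which stand beside Dnmt1 because it works at replication, 13 were lower and 2 higher with LPS alone (median -0.70). With LPS in the presence of JSH-23, 13 were lower and 3 higher (median -0.47). Aurkb fell by 1.66 ± 0.14 and Ccna2 by 1.54 ± 0.13 on the log2 scale, whereas Mki67 rose by 2.74 ± 0.042 from 86.5 to 580 CPM. JSH-23, with which Dnmt1 was higher, lowered 8 and raised 2 of these genes in unstimulated cells, and under LPS it lowered 9 while 7 did not pass. With library totals alone it lowered 5 and raised 3 under LPS. The part of the cell cycle in the changes of Dnmt1 was not tested.

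**Figure D4:**
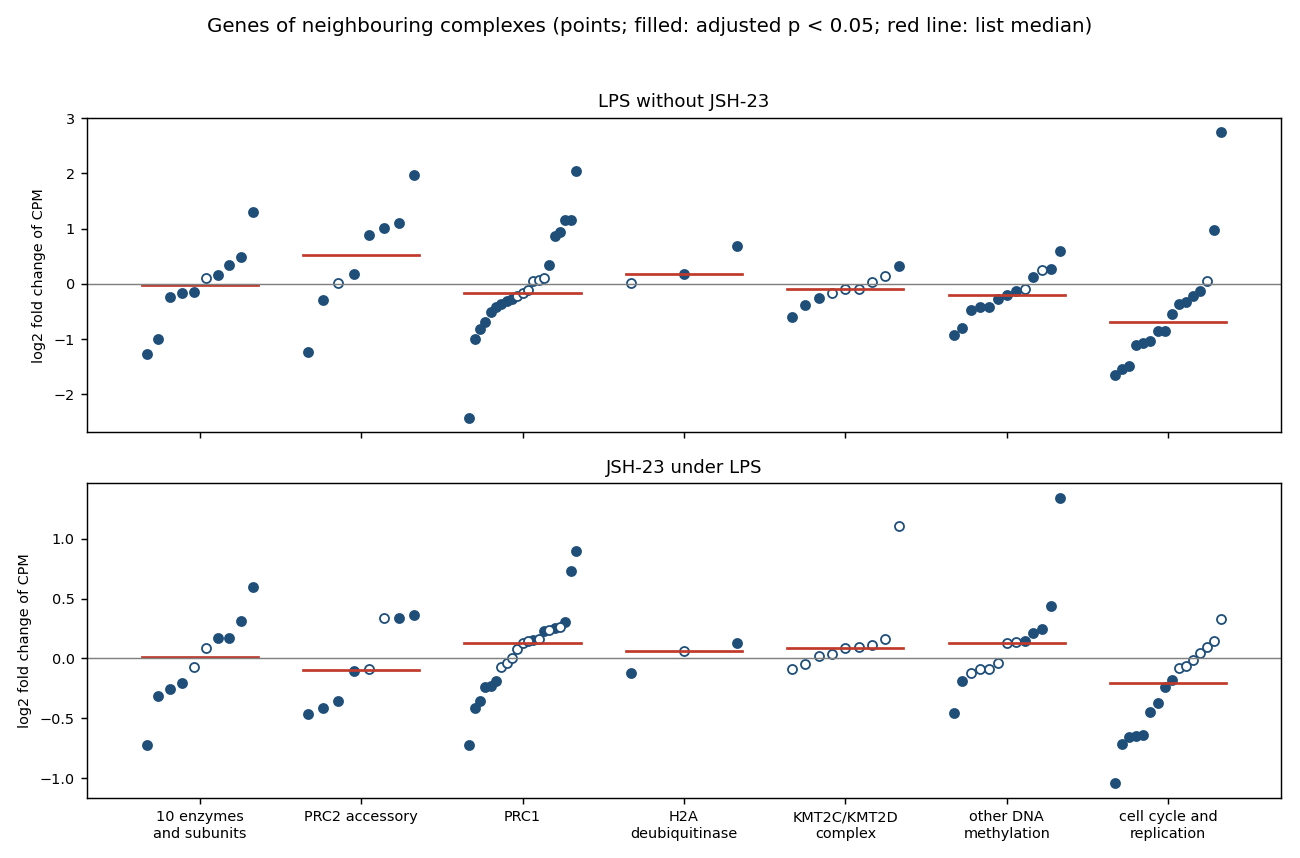
Log2 fold change of CPM (y axis) of each gene (points, filled where the adjusted p is below 0.05) in the 10 genes and in 6 lists of related genes, with the list median in red, for LPS without JSH-23 (top) and JSH-23 under LPS (bottom). The PRC2 accessory list has a median of 0.52 and the cell cycle list of -0.70 with LPS, and Mki67 stands alone near 2.74.

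Across the 12 libraries, log2 CPM of Kdm6a and Tet2 had a Pearson r of 0.93 and that of Ezh1 and Tet2 an r of -0.90. Suz12 had an r of 0.92 with Kdm6b and of -0.92 with Dnmt1. These r values describe 12 libraries in 4 treatment groups and carry no test, since the group differences set them. Among 7855 genes at a mean of 10 CPM or more, the pattern most like that of Tet2 was that of Fam208b (r = 0.99), followed by Ranbp2 and Tmod3. For Dnmt1 these were Mfsd12, Soat1 and Maz (r = 0.99 each), and for Dnmt3a 5031439G07Rik, Zfp276 and Trim8 (r = 0.99 each). Kdm6b was most like Daam1 (r = 0.99) and Suz12 most like Ttc39b (r = 0.99). Ezh2, which varied least, had no gene above r = 0.90, the value of Ttc14.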

How the data were processed

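Bulk RNA of 12 BMDC libraries was analysed from gene tables. Per the file headers the tables hold RSEM expected counts, TPM and transcript lengths weighted by abundance. The authors trimmed reads with Trim Galore, aligned them to mm10 with STAR (version 2.6.0c in the submitters' processing notes) and quantified genes with RSEM. The deposited expected counts and TPM carry no further scaling between libraries. The labels name rRNA depletion and the methods a stranded poly(A) kit, so strand use in counting is unsettled. RSEM splits reads shared by similar genes, which leaves fractional counts.

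Groups came from the sample titles. Identifiers were matched to GENCODE M21 without version (55154 of 55335). Rounded expected counts were filtered with filterByExpr, scaled by TMM and fitted over all 4 groups with edgeR 4.0.16 (quasi-likelihood, 8 residual degrees of freedom, Benjamini-Hochberg over 14357 genes, threshold 0.05) in R 4.3.3. The 95% intervals are the SE times the t quantile at these degrees of freedom. Alternatives used DESeq2 1.42.0 and limma 3.58.1 on log2(TPM + 1), other scalings and filters, and each library left out. The fit was tested on simulated data. All members are named, and up to 3 genes of each list by size of the LPS change past the threshold. The members and lists were chosen with earlier results of these data known. The study's ages come from its methods, and the labels give no batch.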

Additional observations from a re-analysis of the deposited data

Results flagged for a closer look

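Tet3 was singled out because its LPS response differed between cells without and with JSH-23 by the test of that difference. The LPS effect was -0.23 without and 0.15 with JSH-23 on the log2 scale, and the difference was 0.39 ± 0.063 (SE, edgeR adjusted p = 0.00019). In TMM-scaled CPM, all 3 WTL libraries lay below all 3 WT libraries, and all 3 WTL + JSH23 libraries lay above all 3 WT + JSH23 libraries. In TPM the JSH-23 groups overlapped, at 8.07 to 8.89 without LPS and 7.83 to 8.35 with it. The LPS effect with JSH-23 was -0.087 with library totals alone and -0.047 on log2(TPM + 1), and neither passed.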

How the results depend on the processing

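The members called numbered 2, 2, 0 and 0 when a change of more than 2-fold was also required (LPS without and with JSH-23, JSH-23 under and without LPS), and 0 for the difference of the LPS effects. On log2(TPM + 1) they numbered 4 for LPS with JSH-23 and 5 for each JSH-23 comparison, against 7, 8 and 8. For the difference of the LPS effects, 1 member passed in the main fit with TMM and 5 with library totals alone, where 2499 of all genes were higher and 651 lower. It was 2 with DESeq2, where 1000 of all genes were higher and 1440 lower, and 2 on log2(TPM + 1), where these were 1400 and 362. It was also 2 with no filter or a minimum mean of 1 CPM, and between 1 and 3 when 1 library was left out. Counts over all genes are not given for these last fits. The log2 change of the Ezh2 to Ezh1 ratio with JSH-23 was -0.22 from CPM, where it passed. Without 1 library it lay between -0.27 and -0.15, and its LPS change between -0.14 and -0.030.

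Signs turned mainly with the scaling, for log2 changes of at most 0.24 in size. With library totals alone, log2 changes with LPS were -0.17 for Kdm6a and -0.23 for Eed without JSH-23. With JSH-23 they were -0.024 for Kdm6a, -0.23 for Ezh1, -0.099 for Eed, -5.8e-05 for Suz12 and -0.087 for Tet3. JSH-23 under LPS gave 0.061 for Suz12. On log2(TPM + 1), LPS gave -0.19 for Kdm6a and -0.22 for Eed without JSH-23, and -0.13 for Ezh1, -0.018 for Eed and -0.047 for Tet3 with it. JSH-23 gave 0.019 for Eed and 0.048 for Suz12 under LPS and 0.0040 for Ezh2 without. The difference of the LPS effects was 0.073 for Kdm6b and 0.023 for Suz12. For LPS with JSH-23, Ezh1 was at -0.075 with upper quartile scaling and between -0.017 (without WTL + JSH23 replicate 1) and 0.021 with 1 library left out. Ezh2 was at 0.0048 with DESeq2 size factors, 0.0047 with DESeq2 and between -0.031 and 0.030 with 1 library left out, positive without WT + JSH23 replicate 1 (0.030) or WTL + JSH23 replicate 3 (0.026). The difference for Eed lay between -0.0084 and 0.12, at -0.0084 without WT + JSH23 replicate 2 and -0.0076 without WTL + JSH23 replicate 1. The cause of these changes was not tested. Fitting only the groups compared changed none of 40 member results.

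Replicate numbers are shared by WT and WTL, as 4 to 6, and by the 2 JSH-23 groups, as 1 to 3. If these numbers mark separate cultures or runs, such a difference cannot be told apart from JSH-23 in the JSH-23 comparisons. Deviations of same-numbered libraries from their group means were correlated over 7178 genes. In the JSH-23 groups r was 0.21, 0.079 and 0.37 for numbers 1 to 3. Without JSH-23 it was 0.091, -0.052 and 0.11 for numbers 4 to 6. For numbers 1 and 3 the unstimulated library was most like its same-numbered partner, and for the other numbers it was not. The labels state no pairing, so the main fit did not pair libraries. With replicate number as a block, 3 members passed for the difference of the LPS effects, Tet3 with Tet2 (-0.18, edgeR adjusted p = 0.030) and Dnmt3a (0.22, adjusted p = 0.028). The count over all genes is not given for that fit. The block changed no other member's call in the LPS comparisons.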
